A study of Mus musculus with 6 samples.

Results

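The AP-1 transcription factors described here are 10 genes, Fos, Fosb, Fosl1, Fosl2, Jun, Junb, Jund, Atf3, Batf and Maff. Each was taken from the only row of the deposited table that carries its symbol alone, so 10 of the 35556 transcript clusters, or of the 21789 with exactly 1 gene symbol, are members. They were measured on Affymetrix Mouse Gene 1.0 ST arrays in RNA of whole dorsal skin from Cbl-b-/- mice (clb-b -/- in the labels) and wild-type (WT) mice, on 3 arrays per genotype that the methods give as biological replicates. The BL6 mice were shaved on the day before and received a single UVB dose of 80 mJ/cm2, and skin was taken 24 h later. The labels give the animals as sex and age matched, with no age. The knockout of the ubiquitin ligase Cbl-b is not restricted to skin or to a cell type in the labels. In bulk skin fewer cells of a type and less RNA per cell cannot be told apart. Skin before irradiation was not analysed here, so no value below is a response to UVB.

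AP-1 is a family of dimers. A Fos protein (Fos, Fosb, Fosl1, Fosl2) pairs with a Jun protein (Jun, Junb, Jund) through a leucine zipper, and the pair binds DNA through the adjoining basic region. Jun proteins can also pair among themselves, and Atf3, Batf and the small Maf protein Maff join the same network with partners of their own. Fos, Fosb, Jun, Junb and Atf3 are immediate early genes, transcribed within minutes of stress or growth factor signals through the MAP kinases, and UV light is a classical inducer. In skin the family is known for its part in keratinocyte proliferation, differentiation and inflammation.

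The promoters of 9 of the 10 members were found in RefSeq (GRCm38.p6), as 11 windows from 250 bases before to 50 after a start, of which Maff has 3. Fosl1 was the member with none. Windows of Fos, Fosb and Maff are shown, a single one for Maff, because these 3 genes lay apart between the genotypes. That of Jun is shown for a gene that did not. Capitals mark every match to 6 motifs searched on both strands, in this window of each gene. They are the TRE with the letters TGACTCA, the CRE with the letters TGACGTCA, the first part of the CRE, which it overlaps, with the letters TGACGT, the variant known from the Jun gene with the letters TGACATCA, the CArG box, and the TATA box with the letters TATAAA. The motifs TGACGT and TGACATCA were added after the windows had been read.
Fos promoter (chr12:85473640-85473939, + strand): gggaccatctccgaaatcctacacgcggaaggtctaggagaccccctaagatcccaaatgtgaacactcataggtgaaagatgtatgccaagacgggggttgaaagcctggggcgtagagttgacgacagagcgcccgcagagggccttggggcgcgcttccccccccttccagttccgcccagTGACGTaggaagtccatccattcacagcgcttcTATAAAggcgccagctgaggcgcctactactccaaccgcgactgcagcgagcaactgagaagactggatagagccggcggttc
Fosb promoter (chr7:19309996-19310295, - strand): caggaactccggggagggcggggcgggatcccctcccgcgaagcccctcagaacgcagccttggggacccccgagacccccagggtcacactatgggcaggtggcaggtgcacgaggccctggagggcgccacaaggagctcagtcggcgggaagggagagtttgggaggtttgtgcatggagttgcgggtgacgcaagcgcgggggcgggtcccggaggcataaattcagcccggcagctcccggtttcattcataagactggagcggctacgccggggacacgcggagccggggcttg
Maff promoter (chr15:79347270-79347569, + strand): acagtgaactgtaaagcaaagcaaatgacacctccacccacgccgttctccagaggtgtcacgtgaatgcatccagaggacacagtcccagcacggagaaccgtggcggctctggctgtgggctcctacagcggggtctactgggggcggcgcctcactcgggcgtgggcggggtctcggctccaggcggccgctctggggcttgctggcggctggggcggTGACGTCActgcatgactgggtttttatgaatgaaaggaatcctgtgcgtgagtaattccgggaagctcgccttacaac
Jun promoter (chr4:95052173-95052472, - strand): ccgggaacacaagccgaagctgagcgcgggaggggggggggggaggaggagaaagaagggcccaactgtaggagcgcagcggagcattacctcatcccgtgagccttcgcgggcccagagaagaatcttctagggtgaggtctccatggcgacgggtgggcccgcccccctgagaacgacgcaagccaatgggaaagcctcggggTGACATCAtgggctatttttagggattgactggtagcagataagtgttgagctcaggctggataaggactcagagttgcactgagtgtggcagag
In Fos, TGACGT began 66 bases and TATAAA 33 bases before the start. In the Maff window shown, the whole TGACGTCA began 29 bases before, and in Jun, TGACATCA began 45 bases before. Of the Maff windows not shown, the first held none of the 6 motifs. The other held TGACATCA, which also began 45 bases before its start. The Fosb window held none of the 6. Over the 11 member windows, TGACGTCA was in 1, TGACGT in 4, TGACATCA in 2, TATAAA in 2, and the TRE and the CArG box in 0. Of all 32851 promoter windows, TGACGTCA was in 1.79%, TGACGT in 7.51%, TGACATCA in 3.62%, TATAAA in 13.6%, the TRE in 5.2% and the CArG box in 1.63%. Because TGACGT and TGACATCA were added after the member windows had been read, their counts cannot be weighed against the shares of all windows. Of the 2 TATAAA matches, that in Junb began at base 1 after the start. These are matches of letters, not measured sites, and sequence outside the windows was not searched.

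Values are log2 expression as the authors normalized it. Cblb, the inactivated gene, was lower on all 3 Cbl-b-/- arrays, at 8.64 ± 0.05 (SD, n = 3) against 9.76 ± 0.13 (SD, n = 3). Both levels are above background, and which part of the transcript the probes cover was not analysed here. All 10 keratinocyte, 10 dermal fibroblast and 12 skeletal muscle markers on the list lay above background on at least 1 array. Background was taken as the 95th percentile of 1210 rows of olfactory and vomeronasal receptor genes, between 5.22 and 5.42 on the 6 arrays. WT replicate 3 stood apart in hair follicle genes, whose median over 19 genes was 8.97 there and 5.48 to 7.14 on the other arrays. Cbl-b-/- replicate 2 differed from the other Cbl-b-/- arrays in the medians of neutrophil (8.72 against 6.03 and 6.38), adipocyte (7.51 against 9.33 and 9.41) and skeletal muscle markers (9.44 against 10.51 and 10.62). Every member lay above background on all 6 arrays. The smallest margin was 0.29, for Maff.

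Of the Fos family, Fosb and Fos lay higher in Cbl-b-/- skin. Fosb encodes an inducible Fos protein and read 7.30, 7.68 and 8.27 on the 3 Cbl-b-/- arrays and 6.58, 7.15 and 7.07 on the WT arrays. All Cbl-b-/- values were above all WT values, by 0.14 at the closest, and Cbl-b-/- replicate 3 was the highest. The log2 fold change of Fosb, Cbl-b-/- minus WT, was 0.81 (standard error 0.27, 95% confidence interval 0.16 to 1.46, adjusted p = 0.743 from limma), or 1.76-fold.

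Fos, the prototype of the family, read 7.28, 7.50 and 7.39 in Cbl-b-/- skin and 6.81, 7.12 and 6.70 in WT skin. Its groups were separated by 0.16 at the closest, with less spread in Cbl-b-/- (SD 0.11) than in WT skin (SD 0.22). The log2 fold change of Fos was 0.52 (standard error 0.13, 95% confidence interval 0.21 to 0.83, adjusted p = 0.685 from limma), or 1.43-fold, under the study's 1.5-fold threshold. By log2 fold change, Fosb was number 27 and Fos number 121 from the top of the 21789 rows with 1 symbol, and by moderated t they were numbers 295 and 54.

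**Figure D1:**
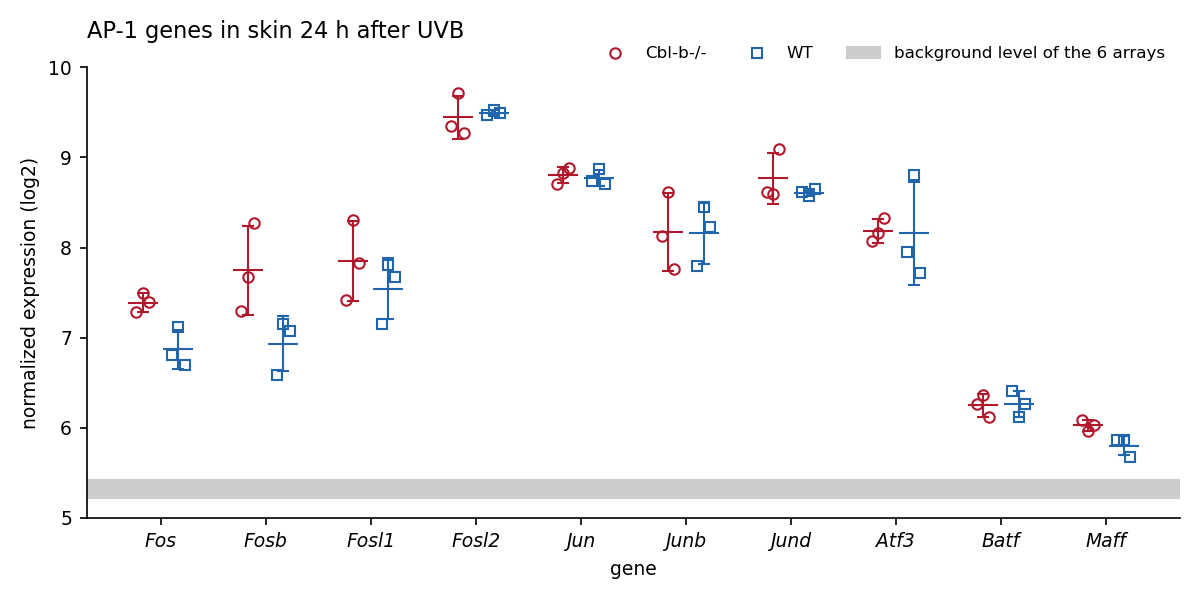
Normalized expression (log2, vertical axis) of the 10 AP-1 genes (horizontal axis) with circles for Cbl-b-/- and squares for WT skin. Points are single arrays, bars with whiskers the mean and SD of 3 arrays, and the grey band the background level (5.22 to 5.42). Fos, Fosb and Maff do not overlap between the genotypes, and levels of different genes are not comparable.

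Fosl1 (Fra-1), a Fos protein of migrating and activated keratinocytes, read 7.42, 8.30 and 7.82 in Cbl-b-/- and 7.16, 7.80 and 7.68 in WT skin. The groups overlapped. Its log2 fold change was 0.30 (standard error 0.26), with a 95% confidence interval from −0.33 to 0.93 that holds both 0 and the 1.5-fold threshold. Fosl2 (Fra-2), expressed in differentiating epidermis, read 9.35, 9.72 and 9.27 against 9.47, 9.53 and 9.49. The 3 WT arrays lay between the Cbl-b-/- arrays, and the log2 fold change was −0.05 (95% confidence interval −0.36 to 0.26).

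In the Jun family, no member lay apart between the genotypes. Jun, the main partner of Fos, had a mean of 8.81 ± 0.09 (SD, n = 3) in Cbl-b-/- skin against 8.77 ± 0.09 (SD, n = 3) in WT. Its 6 arrays spanned 0.18, the narrowest range of the 10 genes, and the 95% confidence interval of its log2 fold change (0.04) ran from −0.18 to 0.25, inside the 1.5-fold threshold of 0.58. Junb, which can restrain Jun, read 8.13, 8.62 and 7.77 against 7.79, 8.45 and 8.23. The genotypes overlapped over most of their range, with a log2 fold change of 0.01 (95% confidence interval −0.60 to 0.63). Jund, the Jun protein least dependent on stimulation, read 8.62, 8.59 and 9.09 against 8.61, 8.57 and 8.65. Cbl-b-/- replicate 3 alone stood off, and the log2 fold change of 0.16 (95% confidence interval −0.19 to 0.51) was −0.01 without that array.

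Of the 3 members outside both families, Maff lay higher in Cbl-b-/- skin by a small amount. It encodes a small Maf protein without an activation domain and read 6.09, 5.97 and 6.03 against 5.87, 5.86 and 5.68. The groups were separated by 0.10, and the log2 fold change of Maff was 0.23 (standard error 0.09, 95% confidence interval 0.02 to 0.44, adjusted p = 0.749 from limma), or 1.17-fold. Atf3, a stress-induced repressor and partner of Jun, read 8.07, 8.16 and 8.33 against 7.95, 8.80 and 7.72. The WT arrays held both its highest and its lowest value, and the log2 fold change was 0.03 (95% confidence interval −0.63 to 0.68). Without WT replicate 2, the highest array, the log2 fold change of Atf3 was 0.35 with an unadjusted p from limma of 0.0400. Without WT replicate 3, the lowest array, it was −0.19. Batf, which works in lymphocytes and dendritic cells, averaged 6.25 ± 0.13 (SD, n = 3) against 6.27 ± 0.15 (SD, n = 3). Its log2 fold change was −0.02 (95% confidence interval −0.28 to 0.25), also inside the 1.5-fold threshold.

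**Figure D2:**
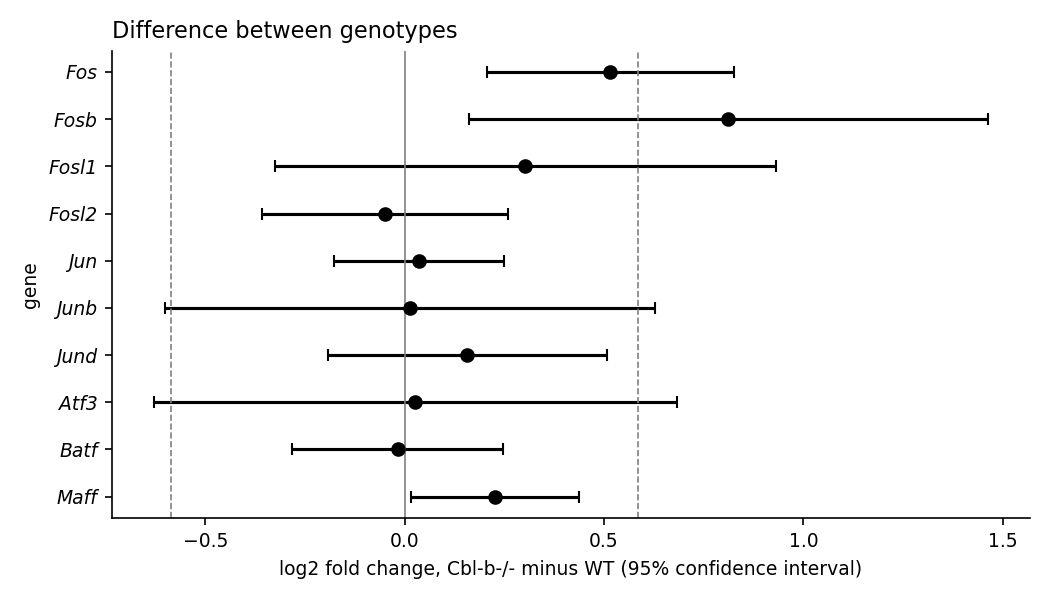
Log2 fold change (Cbl-b-/- minus WT, horizontal axis) of the 10 AP-1 genes (vertical axis). Points are limma estimates, whiskers 95% confidence intervals, and dashed lines the 1.5-fold threshold at 0.58 on either side of 0. The intervals of Fos, Fosb and Maff lie above 0, and those of Fosl2, Jun, Jund, Batf and Maff lie between the dashed lines.

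Counted over the 10 members, 1 (Fosb) passed the study's thresholds (unadjusted p under 0.05, at least 1.5-fold) as higher, and 0 as lower. Among all transcript clusters with 1 symbol, 0.216% met them as higher and 0.28% as lower, or 0.496% in either direction. Over all 35556 transcript clusters these shares were 0.276%, 0.945% and 1.22%. Fos, Fosb and Maff had an unadjusted p under 0.05 in limma, 3 of 10 and all higher, against 3.72% of rows with 1 symbol called higher and 1.63% called lower (5.35% in either direction) and, of all rows, 3.68%, 2.87% and 6.55%. In 3 of 10 members the groups did not overlap, all higher, against 9.5% of rows with 1 symbol higher and 4.11% lower (13.6% in all) and, of all rows, 8.66%, 4.89% and 13.5%. At an adjusted p under 0.05, limma called 0 members, against 0% of rows with 1 symbol and 0.00281% of all rows. The per-row test that the methods name also called 0 at an adjusted p, put 2 members (Fos and Maff) under an unadjusted p of 0.05, and put 0 past the study's thresholds. The exact permutation test over arrays gave a two-sided p = 0.10 for Fos, Fosb and Maff, the smallest that 3 arrays against 3 allow, and 0.4 to 1 for the other 7. The median log2 fold change of the members was 0.10, beside 0.03 over all rows with 1 symbol, and 8 of 10 were above 0, beside 58.4% of those rows.

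The call for Fosb rested on single arrays. Without Cbl-b-/- replicate 3 its log2 fold change was 0.55, under the fold threshold, and without WT replicate 1 it was 0.64 with an unadjusted p from limma of 0.0711. Without each array in turn, the estimate of Fosb ran from 0.55 to 1.04 and that of Fos from 0.43 to 0.64, and without WT replicate 2 Fos met the thresholds as well (0.64). Maff ran from 0.16 to 0.26, and its unadjusted p from limma was 0.0956 after cyclic loess and 0.0713 after quantile normalization. With single arrays left out, the p of Maff was 0.0483 without WT replicate 1 and between 0.0523 (without Cbl-b-/- replicate 2) and 0.115 (without Cbl-b-/- replicate 1) for the other 5. Without WT replicate 3, the array rich in hair follicle genes, Fosb stood at 0.88 and Fos at 0.43.

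**Figure D3:**
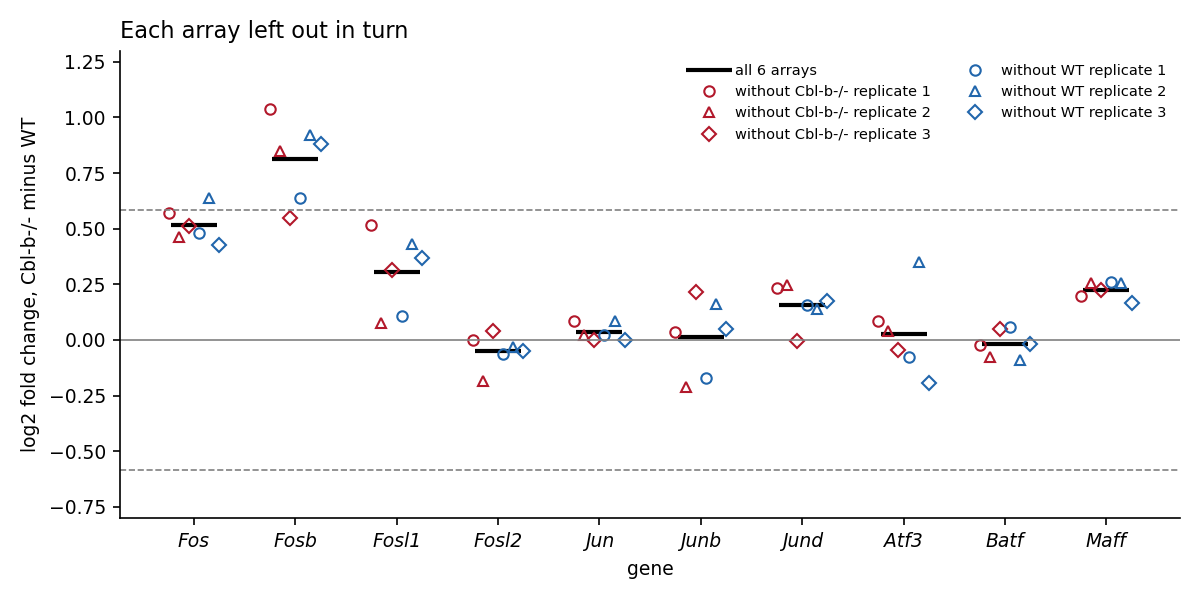
Log2 fold change (Cbl-b-/- minus WT, vertical axis) of the 10 AP-1 genes (horizontal axis) from all 6 arrays (black bars) and with each array left out (red without a Cbl-b-/- array, blue without a WT array; circle, triangle and diamond for replicates 1, 2 and 3). Dashed lines mark the 1.5-fold threshold. Fos, Fosb, Fosl1 and Maff stay above 0 in every case, while Fosl2, Jun, Junb, Jund, Atf3 and Batf cross it.

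Markers of other cell types differed between the same arrays. The median of 8 endothelial markers was 7.63 to 7.74 on the Cbl-b-/- arrays and 7.13 to 7.52 on the WT arrays, and 7 of 8 were higher on average. Egfl7 and Vwf did not overlap (2 of 8, beside 9.5% of rows with 1 symbol higher without overlap). Their summed level on the linear scale was 1796 to 1999 against 1277 to 1957, and 0 of 8 were at background. Of 9 mast cell markers 8 were higher on average, 3 without overlap (beside the same 9.5%), and their median log2 fold change was 0.50. At an unadjusted p under 0.05 in limma were 4 of 9, all higher (44.4%). Of rows with 1 symbol, 3.72% were called higher and 5.35% in either direction. The tryptase gene Tpsb2 (0.66) passed both of the study's thresholds by limma and by the per-row test. The mast cell markers had a summed level of 1362 to 1920 against 1083 to 1457, with Ms4a2 at background on every array. Tpsab1 was among the 3 genes without overlap and the 4 at an unadjusted p under 0.05 in limma. Its log2 fold change was the list's median. It lay under background on WT replicates 2 and 3, at 5.05 and 5.06. Whether either list has a part in the differences of Fos, Fosb and Maff was not tested. The medians of the keratinocyte (10.96 to 11.52 against 10.88 to 11.35), macrophage (8.46 to 8.72 against 8.10 to 9.01) and neutrophil markers (6.03 to 8.72 against 7.10 to 8.23) overlapped between the genotypes, as did those of all lists but the endothelial one. Higher on average were 7 of 8 adipocyte, 5 of 7 T cell, 4 of 10 dermal fibroblast, 2 of 12 skeletal muscle, 1 of 19 hair follicle and 0 of 7 melanocyte markers. WT replicate 3 was the highest array in the last 2 lists. The hair follicle medians were 5.75, 6.44 and 7.14 in Cbl-b-/- and 5.48, 5.66 and 8.97 in WT skin. Those of melanocyte markers were 6.08, 6.72 and 6.68 against 6.14, 6.62 and 8.22. Ucp1 and Cd3d, counted as higher, were at background on every array.

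Members also differed in how widely they varied within a genotype. The pooled within-genotype SD was 0.41 for Fosb, 0.40 for Fosl1, 0.39 for Junb and 0.41 for Atf3, wider than in 92.4% to 93.6% of the 15818 rows with 1 symbol whose mean lay above background. For Jun (0.09) and Maff (0.09) it was wider than in 22.9% and 22.1% of those rows. Cbl-b-/- replicate 2 gave the highest value in 4 of 10 members (Fos, Fosl1, Fosl2 and Junb) and Cbl-b-/- replicate 3 in 3 (Fosb, Jun and Jund). Replicate 2 is the Cbl-b-/- array with the high neutrophil and low adipocyte and muscle markers, whose part in these values was not tested. Without it the log2 fold change was 0.46 for Fos, 0.08 for Fosl1, −0.18 for Fosl2 and −0.21 for Junb. The lowest value fell on WT replicate 3 in 4 members (Fos, Jun, Atf3 and Maff) and on Cbl-b-/- replicate 3 in 3 (Fosl2, Junb and Batf). Cbl-b-/- replicate 3 was thus the highest array for Fosb and Jund and the lowest for Fosl2 and Junb.

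**Figure D4:**
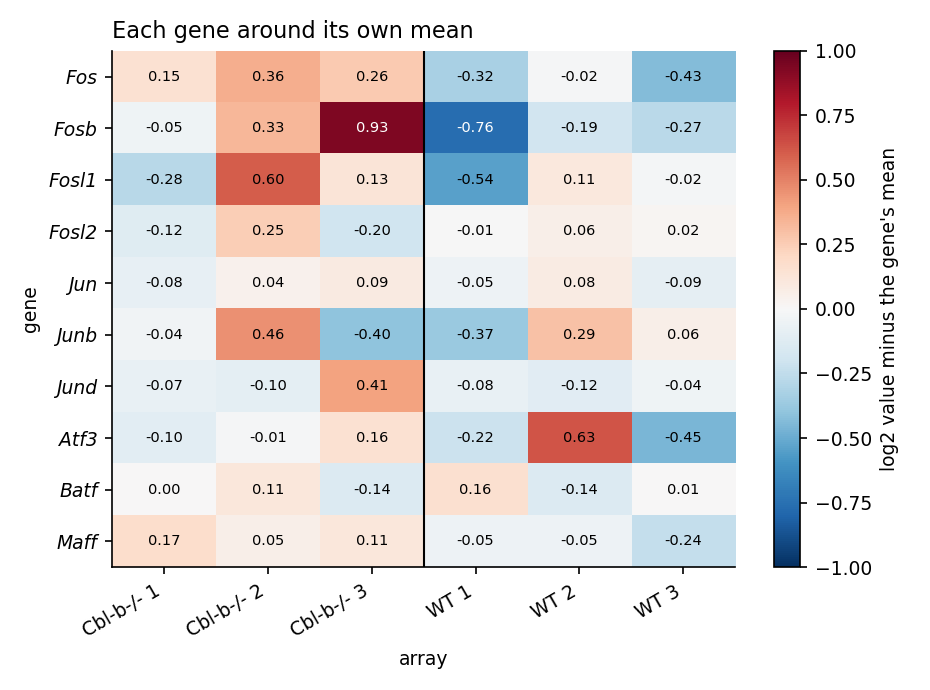
Log2 value minus the gene's own mean over 6 arrays (colour and printed value) for the 10 AP-1 genes (rows) on the 3 Cbl-b-/- and 3 WT arrays (columns, parted by the black line). Fos is above its mean on all 3 Cbl-b-/- arrays and below it on all 3 WT arrays, as is Maff, while Junb and Atf3 have values of both signs in each genotype.

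Averaged over the 4 Fos family genes after centring, the arrays stood at −0.07, 0.39 and 0.28 in Cbl-b-/- and −0.41, −0.01 and −0.18 in WT skin. For the 3 Jun family genes they stood at −0.06, 0.13 and 0.03 against −0.17, 0.08 and −0.02. Both families overlapped between the genotypes, and whether the families differ from each other was not tested. Over the 6 arrays Pearson's r was 0.78 between Fos and Fosb and 0.83 between Fos and Maff. After each genotype's mean was taken out, these were 0.34 and 0.33. Fosl2 with Junb (0.82, and 0.83 within genotypes) and Jun with Atf3 (0.81, and 0.83 within genotypes) kept their value. Of all pairs, the highest within-genotype values were those of Fos with Atf3 (0.91, and 0.47 over the 6 arrays) and with Jun (0.85, and 0.61 over the 6 arrays). These describe 6 arrays on which cell type markers also vary from array to array, and no test was made.

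The rows with a pattern most like that of Fos, by Pearson's r over the 6 arrays among 4587 rows above background with an SD of at least 0.2, were Sox15 (0.97), St3gal2 (0.95), Tns4 (0.95), Rap1gap (0.95) and Abcg1 (0.95). Fosb came at number 122. Closest to the mean of the 10 members were Abcg1 (0.98), Nxnl2 (0.96), Pnpla1 (0.92), Nr4a2 (0.92) and Nbeal2 (0.91). The genotypes lie apart in Fos, so genes that lie apart in the same direction score high here.

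Among 21 measured bZIP genes that can pair or compete with AP-1, 0 met the study's thresholds and 2 had an unadjusted p under 0.05 in limma, both lower (9.52%, beside 5.35% of rows with 1 symbol in either direction and 1.63% lower). Cebpd, an acute-phase and stress-induced C/EBP protein, read 7.23, 7.53 and 7.11 in Cbl-b-/- and 7.76, 7.97 and 7.73 in WT skin. All Cbl-b-/- arrays lay below all WT arrays, and the difference was −0.53 on the log2 scale (standard error 0.13, adjusted p = 0.685 from limma). Bach1, a repressor that pairs with small Maf proteins, stood at −0.30 (standard error 0.12) with overlapping groups. At the upper end were Atf5 (0.16, standard error 0.09) and Maf (0.22, standard error 0.13), both with an unadjusted p above 0.05. The groups of Atf5 did not overlap, and those of Maf did. The median of this list was 0.004.

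Of 22 measured kinases and transcription factors upstream of AP-1, 0 met the thresholds, 1 had an unadjusted p under 0.05 (4.55%, beside 5.35% of rows with 1 symbol), and the median log2 fold change was 0.04. That gene was Map3k1, a kinase at the head of the JNK cascade, which was lower on every Cbl-b-/- array, at 8.64, 8.46 and 8.49 against 8.74, 8.74 and 8.84 (log2 fold change −0.24, standard error 0.09). Map3k8 stood at −0.24 (standard error 0.16), Mapk7 (ERK5) at 0.20 (standard error 0.08) and the kinase Rps6ka5 at 0.11 (standard error 0.08). Mapk7 did not overlap between the genotypes, with an unadjusted p of 0.051 in limma and 0.0288 in the per-row test. Map3k8 and Rps6ka5 overlapped. Among 18 phosphatases and inhibitors of the path, 0 met the thresholds and 1 had an unadjusted p under 0.05 (5.56%, beside 5.35%), with a median of 0.04. It was Spry2, a feedback inhibitor of receptor tyrosine kinase signaling, which read 7.39, 7.49 and 7.39 against 7.05, 7.22 and 7.07. It was higher on every Cbl-b-/- array, by 0.31 on the log2 scale (standard error 0.08, adjusted p = 0.685 from limma). Dusp5 (0.26, standard error 0.13), Spry4 (−0.15, standard error 0.15) and Tsc22d3, a glucocorticoid-induced inhibitor of AP-1 (−0.44, standard error 0.38), overlapped between the genotypes.

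Of 39 measured genes known as AP-1 targets in skin, 2 passed the study's thresholds as higher and 0 as lower, and 4 had an unadjusted p under 0.05, all higher. Among rows with 1 symbol, 0.216% passed the thresholds as higher and 0.28% as lower. The 4 genes are 10.3% at the unadjusted p, beside 3.72% of rows with 1 symbol called higher and 5.35% in either direction. Ptgs2, the inducible cyclooxygenase, read 8.35, 9.59 and 8.71 in Cbl-b-/- and 8.17, 8.35 and 7.60 in WT skin. Its groups touched within rounding, and the log2 fold change of 0.84 (standard error 0.35) lost the call without either Cbl-b-/- replicate 2 (0.49) or Cbl-b-/- replicate 3 (0.93), WT replicate 1 (0.91) or WT replicate 3 (0.62), and after the arrays were centred on their medians (0.83). Hmox1, heme oxygenase 1, read 11.09, 10.94 and 10.89 against 10.88, 10.17 and 9.98. Its log2 fold change of 0.63 (standard error 0.23) stayed past the thresholds, of the arrays left out in turn, only without WT replicate 1. Neither gene met them in the methods' per-row test. Plau, the urokinase plasminogen activator, read 7.84, 7.92 and 7.69 against 7.52, 7.29 and 7.12, or 0.51 higher on the log2 scale (standard error 0.13, adjusted p = 0.685 from limma), under the fold threshold. Cdkn2a, a locus of cell cycle inhibitors, stood at 0.26 (standard error 0.09), with groups that did not overlap. On the lower side, Timp1, an inhibitor of metalloproteinases, read 9.55, 10.82 and 8.60 against 10.60, 10.82 and 10.72, and its log2 fold change of −1.06 (standard error 0.51) rested on the low values of Cbl-b-/- replicates 1 and 3. Without Cbl-b-/- replicate 2 it met the thresholds, at −1.64. Egfr, the receptor for epidermal growth factor, lay lower on every Cbl-b-/- array, at −0.27 (standard error 0.14), with an unadjusted p above 0.05. The list's median was 0.06, and 21 of 39 were above 0, among them Mmp1a, Csf2 and Dmbt1, which were above background on 0 arrays.

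Of 19 other immediate early genes, 1 (Nr4a1) passed both thresholds of the study, in the higher direction. Of rows with 1 symbol, 0.216% did so in that direction and 0.496% in either. An unadjusted p under 0.05 in limma was found for 6 of the 19, all higher (31.6%). Beside this, 3.72% of rows with 1 symbol were called higher and 5.35% in either direction. Like the others, this list was chosen with earlier results of these data known, and the paper itself names Nr4a1. The 31.6% is therefore not an independent test of the list. Nr4a1, an orphan nuclear receptor, read 8.29, 8.21 and 8.88 against 7.81, 7.98 and 7.71. Arc, best known from neurons, read 7.07, 7.12 and 7.12 against 6.49, 6.73 and 6.68. Both lay higher on every Cbl-b-/- array. Nr4a1 was higher by 0.62 on the log2 scale (standard error 0.19, adjusted p = 0.723 from limma). It also met the thresholds in the methods' per-row test, where its unadjusted p was 0.0498. In limma Nr4a1 did not meet them without Cbl-b-/- replicate 3 (0.41) or WT replicate 3 (0.56). Arc, at 0.47 (standard error 0.09, adjusted p = 0.593 from limma), stayed under the fold threshold. At the lower end were Ccn2 (−0.49, standard error 0.26) and Myc (−0.10, standard error 0.13). The median was 0.08. At an adjusted p under 0.05 in limma, 0 genes of any of these lists passed.

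**Figure D5:**
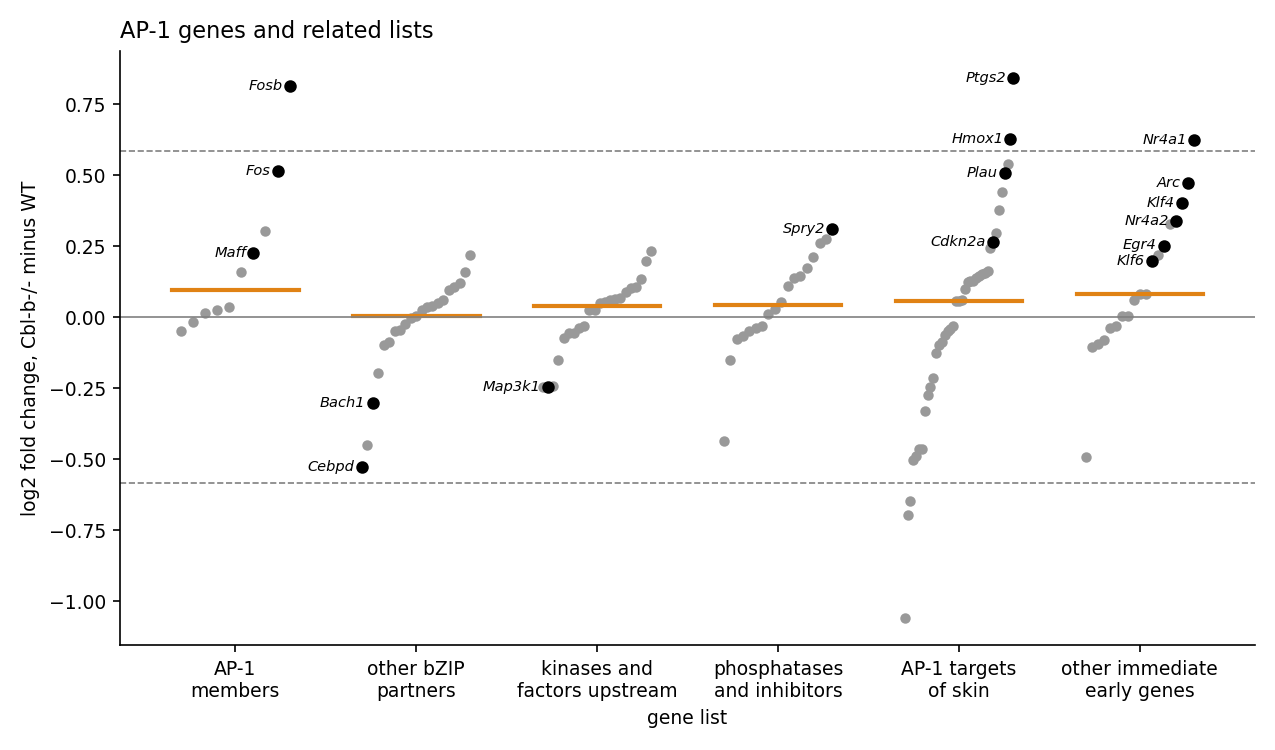
Log2 fold change (Cbl-b-/- minus WT, vertical axis) of the AP-1 genes and 5 related lists (horizontal axis). Points are genes, black and named where the unadjusted p in limma is under 0.05, orange bars are list medians, and dashed lines the 1.5-fold threshold. Fosb, Ptgs2, Hmox1 and Nr4a1 are the named genes above the upper line, and the list medians lie between 0.004 and 0.10.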

How the data were processed

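Dorsal skin RNA was hybridized to 6 arrays. The log2 values were deposited as normalized by the authors with RMA, the robust multichip average (background correction, quantile normalization, median polish), in Partek Genomics Suite, version 6.5 per the submitters' processing notes; the methods name a later version. Genome build and scan batches are not given in the sources used here. The GEO platform annotation named the rows (1 symbol 21789, several 1621, none 12146), and 2 older symbols (Cyr61 and Ctgf) were read as Ccn1 and Ccn2 through RefSeq. Array medians were 6.30 to 6.34. Arrays carry no read depth, and 3 arrays per group limit the precision.

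The genotypes were compared, as Cbl-b-/- minus WT, with limma 3.58.1 in R 4.3.3 on the values as deposited, in 1 fit over all 35556 rows, with Benjamini-Hochberg adjustment. The code was tested on simulated data. Exact permutation tests used scipy 1.17.1. Alternatives were the replicate number as a block, the methods' per-row test, an intensity trend, 3 scalings, a filter on dim rows and leaving out each array. The per-row test, a one-way analysis of variance, was run here over all 35556 rows, so its counts are not the study's own. All 10 members had a single row, so no other rows could be compared. The members and gene lists were chosen with earlier results of these data known. Named genes were all members, and from each related list those past the study's thresholds and the 2 highest and 2 lowest by moderated t. Listed genes without a row of their own (8 over the 5 related lists and 9 over the 11 marker lists) were not analysed here. Genes above background on 0 arrays stayed in the counts and medians of their lists. In the related lists these were Mapk10, Mmp1a, Csf2, Dmbt1 and Npas4, and their fold changes are bounds only.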

Additional observations from a re-analysis of the deposited data

How the results depend on the processing

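The count of AP-1 members past the study's thresholds was 1 in limma, 0 in the methods' per-row test and 0 to 2 with single arrays left out, with 0 without Cbl-b-/- replicate 3 or WT replicate 1 and 2 without WT replicate 2. The count at an adjusted p under 0.05 was 0 under all 13 alternatives. The members' median log2 fold change was 0.089 to 0.11 under the other tests and scalings and ran from 0.058 to 0.21 with single arrays left out, the highest without WT replicate 2. Over all rows, 434 met the thresholds in limma, 267 in the methods' per-row test, 176 with the rows under the median level left out (fewer rows tested, Maff and Batf among those removed), and 428 to 790 with single arrays left out, the most without Cbl-b-/- replicate 2. Over the 5 related lists, 3 genes met them in limma, 1 in the per-row test, and 1 to 7 with each array left out (7 without Cbl-b-/- replicate 2, 5 without Cbl-b-/- replicate 3, 1 without WT replicate 3). The cause was not tested.

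With each array left out, the sign turned in 6 members and in Spry4. Their log2 fold changes ran from -0.18 to 0.038 for Fosl2, -0.0011 to 0.085 for Jun, -0.21 to 0.22 for Junb, -0.0056 to 0.25 for Jund, -0.19 to 0.35 for Atf3, -0.090 to 0.056 for Batf and -0.24 to 0.015 for Spry4. The other alternatives turned the sign of 0 named genes.

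With the replicate number as a block, 1 member and 453 rows met the thresholds, and the unadjusted p of Fosl1 was 0.0371 and that of Maff 0.0586. The labels do not say that equal numbers mark paired mice. Deviations from the group means correlated at 0.36, 0.07 and 0.30 between arrays of equal number, and Cbl-b-/- replicate 1 correlated best with WT replicate 2 (0.38). All members lay above background on every array, with Maff the closest to it (0.29), and 3 arrays per genotype limit the precision.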
